A study of Brassica napus with 6 samples.

Results

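Cleavage sites of named miRNAs were compared between 2 degradome libraries from Brassica napus (oilseed rape), 1 from rod-like and 1 from normal plants. A degradome library captures the 5′ ends of cut transcripts, and each deposited record pairs a miRNA with a target transcript and a cleavage position. All records under a miRNA of a known, numbered family were taken and those under newly predicted miRNAs left out, which gave 307 of 554 records in the rod-like library and 318 of 535 in the normal library. Since 1 cut is often listed under more than 1 name, each transcript and position was counted once as a site. This left 190 of 416 sites in the rod-like library and 222 of 416 in the normal library, or 257 of 617 sites over both. Rod-like and normal plants were grown in 1 field and their shoot apices were taken at early bolting, at an age of 3 months, with apices of 6 plants pooled per RNA sample. The labels do not tie the degradome libraries to the small RNA samples. By title, the rod-like degradome library carries a sample number that none of the rod-like small RNA samples has. The labels also give no cultivar or genotype and do not say what sets the rod-like form apart. With 1 library per plant type there was no replicate and no test between plant types was made. The 95% intervals below are exact (Clopper-Pearson) and cover counting error only, treating sites as independent although many share a sequence.

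In plants a miRNA loaded into an ARGONAUTE protein pairs along nearly its whole length with a transcript, and the transcript is cut opposite the middle of the miRNA. The cut leaves a 5′-phosphate end, which is the end that degradome libraries ligate. Conserved families cut transcripts of transcription factors and hormone receptors that set meristem identity, organ polarity and flowering time, and others act in nutrient supply or on the small RNA machinery itself. Brassica napus carries an A and a C subgenome, so that many targets exist as near-identical copies. The target identifiers begin with BnaA or BnaC and so name the subgenome. Of the 230 target transcripts, 3 were found in the RefSeq gene table, in each case with the identifier as the only name. No gene names are therefore given to targets, and the roles stated below are those known for each miRNA family in Arabidopsis.

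The 39 names came from 24 families and carry species prefixes, with 15 names of Brassica napus (bna), 13 of Brassica rapa (bra), 5 of Arabidopsis (ath) and 6 of others. The prefix belongs to the name as the records give it, and all sites lie on Brassica napus transcripts. The sequences that the comparison turns on follow as the records give them, in DNA letters, with the seed (bases 2 to 8) in capitals. The miR156 names are shown because 1 of them was listed in the normal library alone.
ptc-miR156k: tGACAGAAgagagggagcac
bra-miR156g-5p: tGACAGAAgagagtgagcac
ahy-miR156c: tTGACAGAagagagcgagcac
The first pair shares a seed, and ahy-miR156c starts 1 base earlier and has a seed of its own. The miR172 names share a seed and differ in how many sites each listed, and the miR171 names also share a seed.
gma-miR172k: tGAATCTTgatgatgctgcat
bna-miR172a: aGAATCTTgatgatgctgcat
bra-miR172c-3p: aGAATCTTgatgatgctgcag
bra-miR171e: tGATTGAGccgcgccaatatc
mtr-miR171b: tGATTGAGccgcgtcaatatc
The miR159 and miR319 names have different seeds but list cuts 1 base apart on 1 transcript.
ath-miR159a: tTTGGATTgaagggagctc
ath-miR319c: tTGGACTGaagggagctcctt
The next names belong to families with sites in 1 library alone or with several such sites.
ath-miR393a-5p: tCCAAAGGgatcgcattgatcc
bra-miR395a-3p: cTGAAGTGtttgggggaactc
bna-miR161: tCAATGCActgaaagtgacta
bra-miR162-3p: tCGATAAAcctctgcatccag
bra-miR390-5p: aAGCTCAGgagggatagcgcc
bna-miR397a: tCATTGAGtgcagcgttgatgt
bol-miR398a-5p: gGAGTGTCatgagaacacgga
bna-miR1140: aACAGCCTaaaccaatcggag
bra-miR5716: tTGGATAAttgaagatataaa
Among all 39 names there were 27 distinct seeds, and 4 miR169 names formed the largest group that shared one.

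Most sites of named miRNAs were listed in both libraries. The shared set held 155 sites, which is 81.6% of the rod-like and 69.8% of the normal sites and 60.3% of the 257 (interval 54 to 66.3%). Over all 617 sites of the series the share listed in both was 34.8%, and over the 360 sites of predicted miRNAs it was 16.7%. Another 35 sites (13.6%) were listed in the rod-like library alone, against 32.6% of all sites and 46.1% of predicted ones. The normal library alone listed 67 sites (26.1%), against 32.6% of all sites and 37.2% of predicted ones. Of these 67, 41 were under the single name ahy-miR156c, and without it the shared sites came to 71.8% of all named sites (65.3 to 77.7%). The records hold no tag counts, so the depth of each library is unknown, and a site that was not listed was not shown to be uncut.

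The target caller gave each site a category from 0 to 3, and the definition of the categories is not given in the sources used here. Treating a low category as the stronger evidence is assumed here. The rod-like library had 87.4% of its 190 sites in category 0 (81.8 to 91.7%), with 20 sites in category 1, 0 in category 2 and 4 in category 3. The normal library had 69.4% of its 222 sites in category 0 (62.9 to 75.4%), with 17 sites in category 1, 49 in category 2 and 2 in category 3. Without ahy-miR156c the normal share in category 0 was 85.1% (79 to 89.9%), within the interval of the rod-like share. Sites of predicted miRNAs were in category 0 for 11.1% of 226 in the rod-like and 6.19% of 194 in the normal library. Of the 155 shared sites, 141 had the same category in both libraries, 8 had a lower one in the rod-like and 6 a lower one in the normal library. Of sites with a best category of 0, 150 of 184 were shared, or 81.5%, and 0 of the 49 sites in category 2. All 49 were in the normal library, 41 under ahy-miR156c and 8 of miR161. For predicted miRNAs the shared part was 25% in category 0, 12.2% in category 1, 21.2% in category 2 and 10.9% in category 3.

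**Figure D1:**
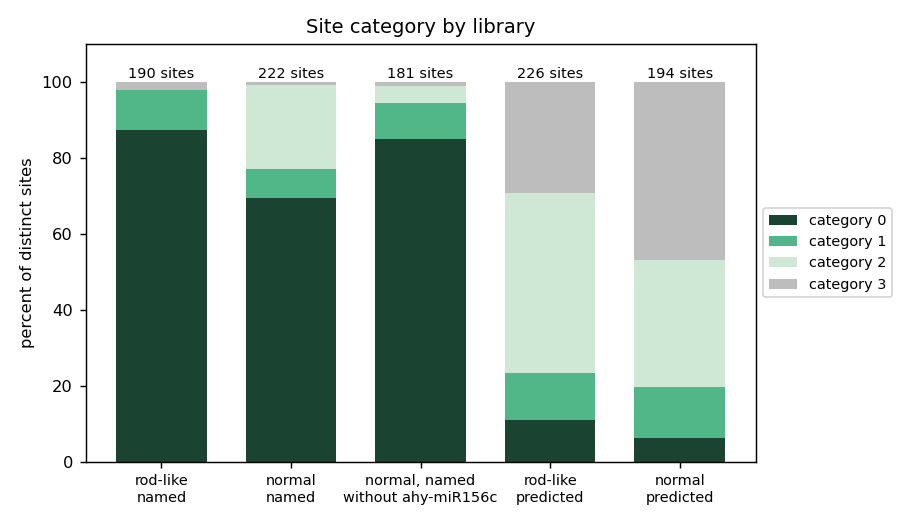
Percent of distinct sites in each category for named and predicted miRNAs, with the rod-like library left of the normal library and the number of sites above each bar. Dark bars (category 0) hold 87.4% of rod-like and 69.4% of normal sites of named miRNAs, and 85.1% in the normal library without ahy-miR156c.

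The score is a penalty for imperfect pairing. In all 625 records of named miRNAs it equalled 1 for each mismatch or gap plus 0.5 for each G:U pair, as counted from the deposited alignments. Taking the lowest score of each site, the median was 2 in both libraries. The rod-like quartiles were 1 and 2.5, and the normal quartiles 1 and 3. Scores ran from 0 to 4.5 in both. For predicted miRNAs the median was 4 in the rod-like and 3.5 in the normal library. Pairing was complete opposite miRNA bases 10 and 11, where 100% of sites had a Watson-Crick pair in both libraries, and whether the caller required this is not given. Over bases 2 to 8 the paired share was 92.8% in the rod-like and 92.7% in the normal library, and over bases 13 to 19 it was 86.2% in the rod-like and 86.3% in the normal library. The weakest base was 14, with 66.8% of rod-like and 68% of normal sites paired. Many of the sites without a Watson-Crick pair there were of miR156, whose commonest site sequence, on 22 transcripts, lacks it. Shares without miR156 were not computed.

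**Figure D2:**
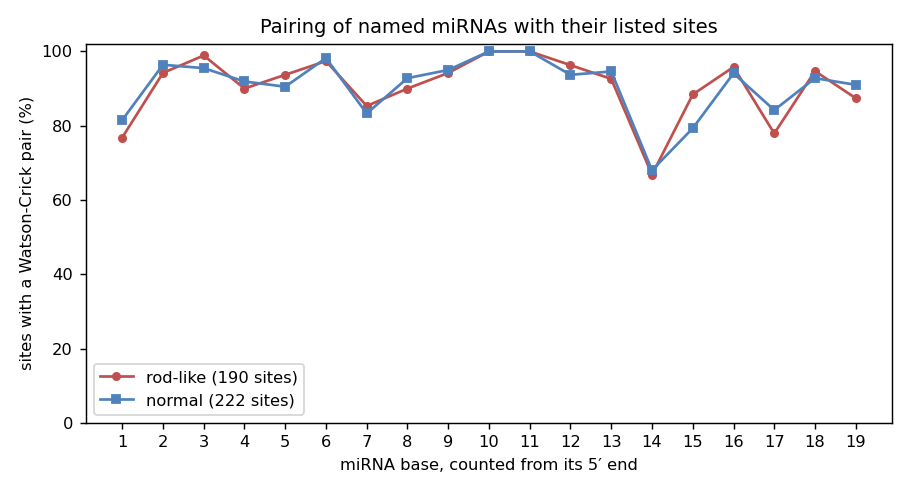
Percent of sites with a Watson-Crick pair at each of the first 19 bases of the miRNA, from the best-scored record of each site, for 190 rod-like and 222 normal sites. Both lines reach 100% at bases 10 and 11 and are lowest at base 14, at 66.8% in the rod-like and 68% in the normal library. Many of the sites without such a pair at base 14 are of miR156.

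The share of sites on each subgenome was close in the libraries. The rod-like library had 87 of 190 sites on A transcripts, or 45.8% (38.6 to 53.2%). For the normal library it was 96 of 222, or 43.2% (36.6 to 50%). For predicted miRNAs the A share was 46.5% in the rod-like and 45.1% in the normal library. Copies with the same site were frequent. Sites were grouped by sequence under a single name per family, which for miR156 was bra-miR156g-5p. Sites not listed under that name were left out, among them the 41 of ahy-miR156c, all in the normal library alone. The 208 sites kept had 90 distinct sequences, and 48 of these were carried by transcripts of both subgenomes. The most frequent sequence, of miR156, stood on 22 transcripts. Tags from transcripts that share a site and its surroundings cannot be told apart, and how the caller placed them is not given. Of the 51 sequences on more than 1 transcript, 31 had every copy listed in both libraries. In 8 of the 51 every copy was listed in the rod-like library and none in the normal one, and in 3 the reverse held. Each of these 11 sequences stood on both an A and a C transcript, as did 48 of the 51.

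Of the 24 families, 18 had sites in both libraries, 5 in the rod-like library alone and 1 in the normal library alone. The families miR160, miR164, miR168, miR394 and miR5654 listed exactly the same sites in both, numbering 6, 9, 4, 4 and 13. The plot of sites by family shows where the others differed.

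**Figure D3:**
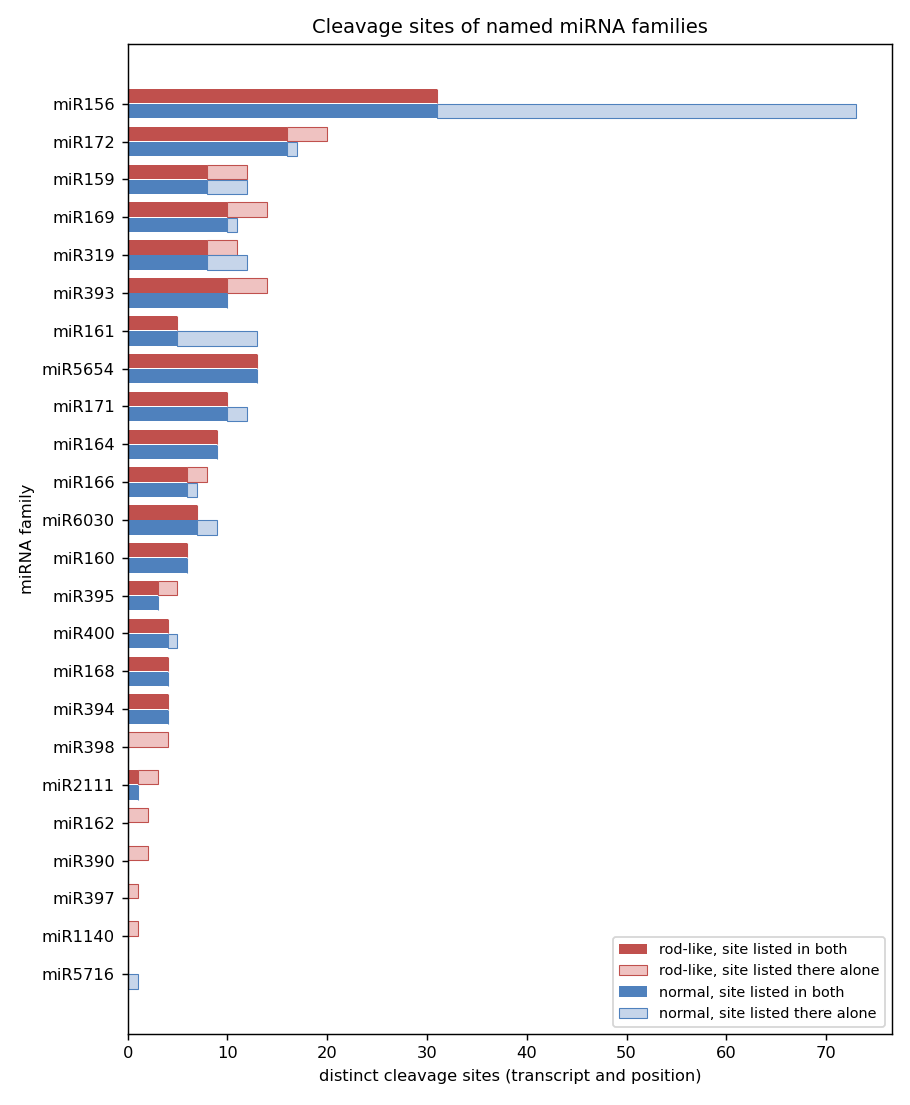
Number of distinct cleavage sites of each miRNA family, with the rod-like bar above the normal bar. Solid parts are sites listed in both libraries and pale parts are sites listed in that library alone. The longest pale part is that of miR156 in the normal library, 42 of 73 sites.

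The phase change families miR156 and miR172 control SPL and AP2-like factors, which set when a plant leaves its juvenile phase and flowers. Together they had 51 sites in the rod-like and 90 in the normal library, with 47 in both. All 51 rod-like sites and 48 of the 90 normal sites were in category 0. For miR156 the rod-like library listed 31 sites and the normal library 73, and every rod-like site was among the normal ones. All 41 records of ahy-miR156c were in category 2 with a P-value of 0.004. Of them, 22 lay on transcripts that also had a site of ptc-miR156k or bra-miR156g-5p, and each of these 22 was listed exactly 1 base further along than that site, with scores of 1 to 1.5. The other 19 lay on transcripts with no other miR156 site and had scores of 4 or 4.5. The extra normal sites thus fell into neighbours of other miR156 sites and sites with many mismatches. An example of a neighbour is BnaA04g24340D, cut at position 800 in both libraries in category 0 and listed at position 801 in category 2 in the normal library. Apart from ahy-miR156c the normal library had 32 miR156 sites, the 31 shared ones and position 938 of BnaC09g27080D in category 0. The commonest site, where capitals mark bases that are unpaired or in a G:U pair, is shown with the only site that paired perfectly with bra-miR156g-5p, position 743 of BnaCnng61400D.
commonest miR156 site, against bra-miR156g-5p: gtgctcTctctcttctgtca
miR156 site of BnaCnng61400D, against bra-miR156g-5p: gtgctcactctcttctgtca
The commonest form was listed on 21 transcripts in the rod-like and 22 in the normal library.

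For miR172 the libraries listed 20 rod-like and 17 normal sites, of which 16 were shared, and all were in category 0. The lowest score, 0.5, was held by 7 rod-like and 5 normal sites, position 642 of BnaA01g34730D among them in both. Position 1239 of BnaCnng39690D and position 639 of BnaCnng71740D scored 0.5 in the rod-like and 1.5 in the normal library. Both were shared sites, and the normal library did not list them under bra-miR172c-3p. Listing differed far more by name than by site. The name bra-miR172c-3p had 18 sites in the rod-like and 4 in the normal library, while bna-miR172a had 18 rod-like and 15 normal sites and gma-miR172k 18 rod-like and 17 normal. The miR172 sites missing under bra-miR172c-3p in normal plants were thus mostly listed there under other names. Sites in the rod-like library alone were position 103 of BnaA02g21980D, position 1392 of BnaAnng12130D and position 420 of both BnaA07g23750D and BnaC06g24560D. The site sequences of BnaA02g21980D and BnaAnng12130D were each listed on a C transcript in both libraries, at position 103 of BnaC02g29130D and position 1386 of BnaCnng65060D. BnaA07g23750D and BnaC06g24560D are an A and a C transcript with the same site, scored 3 against bra-miR172c-3p.
miR172 site of BnaA07g23750D and BnaC06g24560D: ctgcTgcatcatcaagCtct
In the normal library alone stood position 1022 of BnaA03g17870D, with a score of 4.

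The organ polarity, meristem and boundary families had 54 sites in the rod-like and 56 in the normal library, with 45 in both. Category 0 held 92.6% of the rod-like and 89.3% of the normal sites. The family miR164, which acts on CUC boundary genes, listed 9 shared sites with scores of 1.5 to 2 and 8 in category 0 in each library. The score of 1.5 was that of position 603 of both BnaC04g34520D and BnaC05g38460D. The copy BnaA08g00130D at position 720 was in category 1 in the rod-like and 0 in the normal library, and the C transcript with the same site, BnaC03g70990D at position 732, was in category 0 in the rod-like and 1 in the normal library. For miR394, which acts on an F-box gene and is itself needed to keep the meristem, all 4 sites had the same sequence. They were in category 0 with a score of 1 in both libraries, as at position 1203 of BnaA07g08860D.
miR394 site on all 4 transcripts: ggaggtTgacagaatgccaa

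The family miR166, which acts on HD-ZIP III factors of organ polarity, had 8 rod-like and 7 normal sites with 6 shared. All 8 rod-like sites were in category 0, against 4 of 7 normal sites, and these 4, position 606 of BnaA08g11980D among them, had the same score of 2.5. Position 315 of BnaA02g06170D was in category 0 in the rod-like and category 3 in the normal library, the only shared site of any family whose category differed by more than 1. Position 612 of BnaC09g54340D was in category 0 in the rod-like and 1 in the normal library. Position 615 of BnaA10g13520D and position 636 of BnaC05g23470D were listed in the rod-like library alone, in category 0, and 5 other transcripts with the identical site were listed in both. Capitals again mark bases unpaired or in a G:U pair.
miR166 site of 7 transcripts: TgggatgaagcctggtccgG
miR166 site of BnaA02g06170D: CgggatgaagcctggtccgG
In the normal library alone stood position 1023 of BnaC06g13950D, with a score of 4 in category 3.

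For miR171, which acts on GRAS factors of the HAM group, 10 sites were listed in the rod-like and 12 in the normal library. The 10 were shared and in category 0, and 8 of them, such as position 832 of BnaA03g21080D, carry a sequence fully complementary to bra-miR171e. The 2 further normal sites, on BnaA09g31980D and BnaC08g22790D, were in category 1 in the normal library alone. Their site is fully complementary to mtr-miR171b and has a score of 1 against bra-miR171e.
miR171 site of 8 transcripts: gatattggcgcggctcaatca
miR171 site of BnaA09g31980D and BnaC08g22790D, against bra-miR171e: gatattgAcgcggctcaatca
So the normal library listed a perfectly paired miR171 site on an A and a C copy that the rod-like library did not list.

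The relatives miR159 and miR319, which act on MYB and TCP factors, had sites in each library alone. For miR159 each library had 12 sites, all in category 0, with 8 shared and 4 in each library alone. The shared sites scored 2 to 2.5, and 6 of them, position 933 of BnaA03g22590D among them, carry 1 sequence with a score of 2. Those in the rod-like library alone scored 4 to 4.5 and formed 2 pairs of A and C copies, BnaA10g13060D with BnaC09g35530D and BnaA04g21720D with BnaC04g45570D. The normal library alone had scores of 1 to 4.5. For miR319 there were 11 rod-like and 12 normal sites with 8 shared, and 8 rod-like and all 12 normal sites were in category 0. Position 1024 of BnaA05g30730D and of BnaC05g45180D stood in the rod-like library alone in category 1. Position 1183 of BnaA05g00870D and position 1171 of BnaC04g00500D stood in the normal library alone in category 0. Each is an A and C pair with its own site sequence. The other 2 sites in the normal library alone, position 649 of BnaA05g24520D and position 973 of BnaCnng59700D, share a sequence that was listed on 4 more transcripts in both libraries.
rod-like pair, against ath-miR319c: aaggGgcAcTcttcagtccaG
normal pair, against ath-miR319c: aaggAagTtcccttGagtTcaa
On 1 transcript, BnaCnng51960D, the rod-like library listed a miR319 cut at position 896 with a score of 2.5, and the normal library a miR159 cut at position 897 with a score of 1. Both were in category 0. The listed stretches overlap on that transcript, and counting the positions separately puts 1 site in each library alone.
BnaCnng51960D against ath-miR319c: TagagctTccttcagtccaa
BnaCnng51960D against ath-miR159a: gagctTccttcaGtccaaa

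Auxin and TAS3 families had 22 sites in the rod-like and 16 in the normal library, and all 16 were shared. The family miR160, which acts on auxin response factors, had the same 6 sites in category 0, with 3 on each subgenome and scores of 0.5 to 2. The score of 0.5 was that of position 1297 of BnaA07g20790D and position 1294 of BnaC06g20640D, which share a site. For miR393, which acts on the TIR1 and AFB auxin receptors, there were 14 rod-like and 10 normal sites, all in category 0. The lowest score, 2, was held by the same 6 sites in both libraries, such as position 1563 of BnaA02g28290D. The 4 further rod-like sites were position 1731 of BnaA07g19520D and position 1578 of BnaA09g40340D, BnaC08g32660D and BnaCnng60850D. They have an identical site, scored 2.5, which was also listed on BnaC06g43000D, so this sequence had 5 rod-like copies and 1 normal copy.
miR393 site of 5 transcripts: AgacaatgcgatcTctttgga
miR393 site of 4 transcripts listed in both libraries: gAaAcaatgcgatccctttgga
The family miR390, which triggers TAS3 small RNAs, was listed in the rod-like library alone, at position 77 of BnaA01g27230D and BnaC01g34700D in category 1. Both sites had a score of 4 and a P-value of 0.028.
miR390 site of both transcripts: ggcTctTtGcctcctgagctC

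The copper and lignin families had 5 sites in the rod-like and none in the normal library. They lower copper proteins when copper is scarce. The 4 sites of miR398 were under bol-miR398a-5p in category 3, with scores of 2 to 4.5, and in Arabidopsis the copper superoxide dismutase transcripts are cut by the strand of the other arm. Of these, position 177 of BnaA04g26250D and of BnaC04g50250D share a site, and the others were position 1263 of BnaC09g42460D and position 611 of BnaC09g49660D. The single site of miR397, whose family acts on laccases, was position 1204 of BnaA10g25170D in category 0. It had a score of 4 and a P-value of 0.048, the highest of all records of named miRNAs. The miR408 family, which belongs to the same list, had no site in either library.
miR398 site of BnaA04g26250D and BnaC04g50250D: tccgtgttctcatgaactAc
miR397 site of BnaA10g25170D: CcatcAaacTctgcactTGatga

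The mineral nutrient families had 22 sites in the rod-like and 15 in the normal library, with 14 shared. For miR169, which acts on NF-YA factors, there were 14 rod-like and 11 normal sites, with 10 shared. Category 0 held 11 of the rod-like and 9 of the normal sites. The lowest score, 1.5, was that of position 926 of BnaA06g01280D and position 968 of BnaC06g06950D, which share a site. Up to 4 miR169 names listed 1 site, and bna-miR169b had 7 rod-like sites and 1 normal site without a site in common. Most of those rod-like sites were listed in the normal library under other miR169 names. Rod-like sites not listed in the normal library were position 694 of BnaA03g04040D and position 198 of BnaA06g28610D in category 0, and position 119 of BnaA01g20440D and BnaCnng56410D in category 1. The last 2 sites are identical. Position 1286 of BnaA07g02700D stood in the normal library alone in category 1.

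The family miR395, which acts on sulfate assimilation, had 5 rod-like and 3 normal sites in category 0. The 3 shared sites scored 2.5, as at position 386 of BnaA03g36860D. The further rod-like sites, on BnaA06g36560D and at position 1433 of BnaC07g17320D, scored 1.5, so they were the better paired ones.
miR395 site of the rod-like pair, against bra-miR395a-3p: gagttccTccaaacacttcaT
For miR2111, which acts on F-box genes and responds to phosphate, 3 rod-like sites and 1 normal site were listed, all in category 1. Position 268 of BnaA06g32400D was shared with a score of 1.5, and position 220 of BnaA02g28650D and of BnaC02g36670D, with a score of 1, stood in the rod-like library alone.
miR2111 site of the rod-like pair, against bna-miR2111d: taaacAtcaggatgcagatta

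In the small RNA machinery list, miR168, which acts on AGO1, had 4 sites with 1 sequence in both libraries, such as position 585 of BnaA05g17460D, all 4 in category 0 in the rod-like and 3 of 4 in the normal library. The family miR162, which acts on DCL1, was listed in the rod-like library alone. Its 2 sites, position 2903 of BnaA10g00800D and position 2894 of BnaC05g00860D, were in category 0 with a score of 1 and have the same sequence, with 1 unpaired target base.
miR162 site of both transcripts: ctggatgcagaggtAttatcga
miR168 site of 4 transcripts: TtcccgaGctgcaTcaagcTa

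The Brassicaceae, PPR and NBS-LRR list had 30 sites in the rod-like and 40 in the normal library, with 29 shared. For miR161, which acts on transcripts of pentatricopeptide repeat (PPR) proteins, 5 sites were shared and 8 stood in the normal library alone. In category 0 the lowest score was 2, tied over 3 shared sites, position 624 of BnaA09g46700D, position 501 of BnaA09g46890D and position 954 of BnaC08g40910D. Each library had 4 of its miR161 sites in category 0 and 1 in category 1, and all 8 further normal sites were in category 2 with a P-value of 0.022. Of these 8, 3 carry sequences that were listed on other transcripts in both libraries. The 13 sites of miR5654 were shared, 11 in category 0 in the rod-like and 13 in the normal library. The lowest score in category 0 was 2, on 10 rod-like and 11 normal sites, position 1587 of BnaA09g46840D among them in both. By identifier, 8 of the 13 miR5654 sites lie on chromosome C08 and 4 on A09, and miR161 likewise had 5 of 13 on C08 and 3 on A09. On 4 transcripts the normal library listed both families, with the miR161 position before that of miR5654. The distance was 453 bases on BnaA09g47120D and on BnaC08g40130D, 573 on BnaC08g40970D and 420 on BnaC09g37630D. In the rod-like library these 4 transcripts had their miR5654 site alone.
miR161 site of BnaA09g47120D: tTgtcactttcaAtgcTttga

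Another family that acts on PPR transcripts, miR400, had 4 shared sites, all in category 0 in the rod-like and 3 in the normal library, with a score of 1, as at position 851 of BnaA09g12140D. Position 926 of BnaC03g63210D, with a score of 3, stood in the normal library alone. The 7 rod-like sites of miR6030 were among its 9 normal sites, and 5 of the 9 lie on C08. The lowest rod-like score was 0.5, on 2 sites in category 1, and among rod-like sites in category 0 it was 1, at position 215 of BnaC08g15510D and position 572 of BnaC08g41710D. The 2 in the normal library alone were position 593 of BnaA01g35670D in category 1 and position 599 of BnaCnng64090D in category 0. The site of BnaCnng64090D had a score of 0.5, and its sequence was also listed on BnaAnng03870D and BnaC08g21550D in both libraries.
miR6030 site of BnaCnng64090D: gggtTtgtatggtatgggtgga
The single site of miR1140, position 426 of BnaA01g02940D, stood in the rod-like library alone in category 1 with a score of 3.5. The single site of miR5716, outside the lists, stood in the normal library alone at position 1260 of BnaA05g15170D in category 1 with a score of 3.
miR1140 site of BnaA01g02940D: ctAcgGttgCtttggctgtt
miR5716 site of BnaA05g15170D: tttaaActGcaattatccaa

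Small RNA counts of the families gave another readout. They were deposited as 2 files per plant type, which differed by no more than sampling noise (chi-square per degree of freedom 1.05 in rod-like, p = 0.246, and 0.885 in normal, p = 0.952) and were counted as 1 sample each. Counts are given per file, followed by CPM, which here are scaled to the summed counts of the listed miRNAs. Families with sites in the rod-like library alone were counted in small RNA of both plant types. The family with a site in the normal library alone, miR5716, was not in the small RNA list. The family miR162 had 528 and 534 counts (741 and 748 CPM) in rod-like files, against 324 and 300 (518 and 477) in normal files. For miR390 there were 7066 and 7067 counts (9922 and 9903) in rod-like and 7570 and 7543 (12097 and 11990) in normal files. Its CPM was thus lower in rod-like files. The miR397 counts were 31 and 22 (43.5 and 30.8) in rod-like and 17 and 23 (27.2 and 36.6) in normal files, with overlapping CPM. For miR398 they were 63 and 52 (88.5 and 72.9) in rod-like and 51 and 39 (81.5 and 62) in normal files, again with overlapping CPM. The spread between files of a plant type shows counting noise and does not measure variation between plants. The miR1140 counts were 1311 and 1295 (1841 and 1815) in rod-like and 710 and 718 (1135 and 1141) in normal files. Its CPM was thus higher in rod-like files, as was that of miR162. Whether abundance bears on which sites were listed was not tested. The miR161 counts were 82 and 104 (115 and 146) in rod-like and 62 and 70 (99.1 and 111) in normal files. For miR393, with 14 rod-like and 10 normal sites, the counts were 19 and 30 in rod-like and 21 and 29 in normal files.

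Across the 38 families of the small RNA list, Spearman's rho between abundance and number of sites was 0.17 in rod-like and 0.23 in normal plants, given as a description, since families share libraries and differ in how many targets exist. The family miR159 had 2 and 2 counts in rod-like and 8 and 7 in normal files, and 12 sites in category 0 in each library. The name used in the degradome, ath-miR159a, was listed there with 19 bases. At the other end, 15 families of the list had no site in either library. Among them were miR158, at a mean of 187976 CPM in rod-like and 183736 in normal files, and miR167, which acts on auxin response factors, at 20308 in rod-like and 16288 in normal files. The miR408 family stood at 1176 CPM in rod-like and 132 in normal files.

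**Figure D4:**
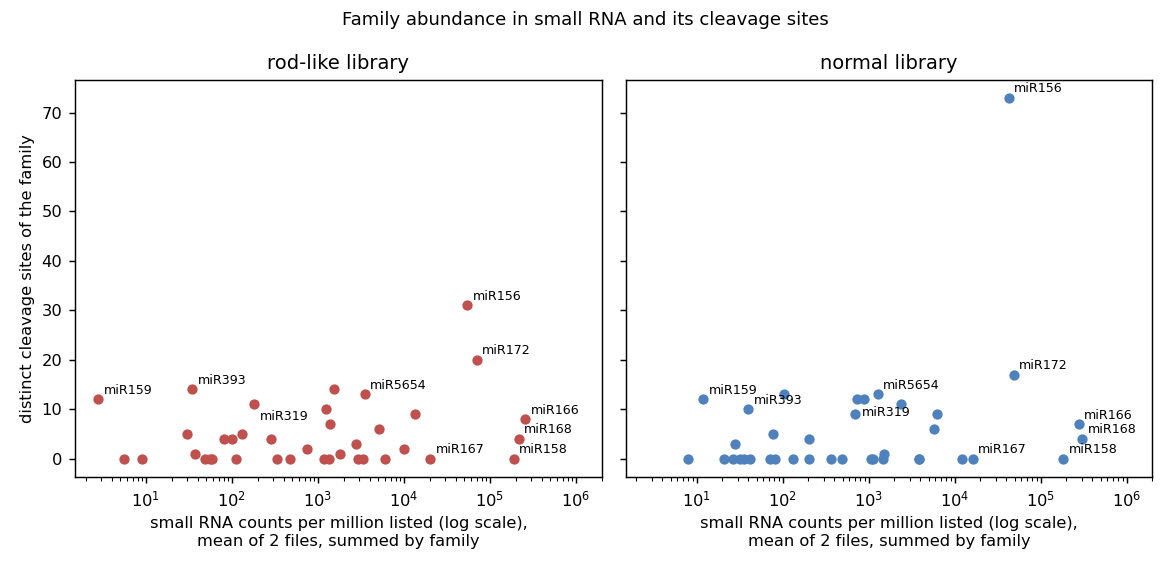
Each point is 1 of 38 miRNA families, with its small RNA CPM on a log axis (mean of 2 files) and its number of distinct cleavage sites, rod-like on the left and normal on the right. The families miR158 and miR167 are abundant with no site, and miR159 has 12 sites in each library at the low end of abundance.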

How the data were processed

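The degradome files hold 4 lines per record. Per the file headers these give a position, a score, a category and a P-value beside the alignment, as the authors' target caller wrote them. By the labels' protocols the libraries were built on poly(A) RNA, with adapters joined to free 5′ ends, an MmeI digestion and PCR, so tags are short. Caller, thresholds, genome build and tag counts are not stated in the material at hand. The authors deposited small RNA as counts for each miRNA. Their sums were 712169 and 713637 in rod-like and 625795 and 629101 in normal files, which sets their precision.

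Records were read with Python 3.11.15 and SciPy 1.17.1. A site is 1 transcript and position, with the lowest category and score among its records. Families follow the number in the name, and role lists follow families. Reading and counting were tested on simulated data. Members and lists were chosen with earlier results of these data known. By rule, every family was named, with each site of families listed in 1 library, the best site per family and library (lowest category, then score, then P-value, ties by name), and shared sites whose category differed by 2 or more. Other sites were named after their values were seen. Alternatives changed which records count and what a site is. No count test was run, since each plant type has 1 degradome library.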

Additional observations from a re-analysis of the deposited data

How the results depend on the processing

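The share of sites listed in both libraries, 60.3%, was 75.9% with categories 0 and 1 only, 71.8% without the name ahy-miR156c, 68.7% with names of prefix bna only, 66.7% with positions within 1 base merged and 67.8% with 1 site per transcript. The normal share of sites in category 0, 69.4%, was 85.1% without ahy-miR156c, 77% with positions within 1 base merged, 78.6% with 1 site per transcript and 76.4% with every record counted. Distinct sites numbered 71 in the rod-like and 69 in the normal library with names of prefix bna only, and the rod-like count was 307 with every record counted, against 318 normal records. The other 62 values of the 74 recomputed for the totals stayed within 1.5 times (counts) or within the interval of the reported value. The order of the site counts turned with the records: 190 rod-like and 222 normal sites as reported, but 190 rod-like and 181 normal sites without ahy-miR156c. All P-values were at or below 0.048, so a threshold of 0.05 removed nothing. Of the 48 counts of sites per family and library, 22 were over 1.5 times lower with prefix bna only, 12 higher with every record counted, 3 lower with categories 0 and 1 only, and 1 lower without ahy-miR156c. Scaling small RNA to known miRNAs moved 37 of 46 family means by more than the spread between files. No paired analysis was possible because the degradome has 1 library per plant type and no test was made, and for the same reason no library could be left out. Unknown tag depth limits what a missing site means.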

Other observations

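P-values of the target caller were often shared between records. Of 93 combinations of library, name and category, 24 held 1 record, and in 54 of the other 69 all records had the same P-value. Records of the same name and site in both libraries numbered 242, all with the same score in each, and 106 of them had the same P-value in both. Several names listed 173 of the 412 sites counted over the libraries, and in each of these 173 all records had 1 category. No site of a named miRNA was also listed under a predicted one, 0 of 257, and no site was listed under 2 families.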
